A study of Mus musculus with 14 samples.

Results

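The miR-200 family comprises 5 mature miRNAs cut from 2 genomic clusters, and it was described here across 14 mouse tissues, cluster against cluster. The members, chosen by name from the deposited table, were mmu-miR-200b, mmu-miR-200a and mmu-miR-429 of the first cluster and mmu-miR-200c and mmu-miR-141 of the second. These are 5 of the 1046 names in the table, and all 5 reached 10 RPM, a read count divided by the library's total of miRNA reads and multiplied by 1000000, in some library. The digestive organs were oesophagus, stomach, small intestine and colon, with pancreas and liver beside them. The rest were kidney, lung, spleen and heart, brain and cerebellum, uterus and ovary. All came from C57BL/6J mice, an inbred laboratory strain, and no treatment, age or sex is given. Each tissue is 1 library of RNA pooled over animals (the labels name 5 mice at harvest and 10 in the pool), so no value has a replicate, no test between tissues was possible, and all intervals are exact 95% intervals for counting error only. RNA came from bulk tissue, so fewer epithelial cells and less miRNA per epithelial cell cannot be told apart.

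A miRNA is cut from a hairpin in a longer transcript, and hairpins that lie close together on a strand are usually cut from a shared transcript. The mature strand pairs with messenger RNAs mainly through its seed, the bases from position 2 to position 8. The miR-200 family is known as a marker of epithelial cells: it represses ZEB1 and ZEB2, transcription factors that switch off E-cadherin, and the ZEB factors in turn repress both clusters. Loss of the family accompanies the change of epithelial cells to a mesenchymal state. Messenger RNAs were not measured in these libraries.

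The family carries 2 seeds, and each cluster holds both. The mature sequences of the 5 members (RefSeq, GRCm38.p6, the 3′ arm of each hairpin) are shown with the seed in capitals, because the seed divides the family in a different way than the clusters do.
miR-200b: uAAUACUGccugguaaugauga
miR-429: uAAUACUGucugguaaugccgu
miR-200c: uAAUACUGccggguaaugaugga
miR-200a: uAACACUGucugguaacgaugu
miR-141: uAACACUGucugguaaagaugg

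miR-200b, miR-429 and miR-200c share the seed AAUACUG, and miR-200a and miR-141 share AACACUG, which differ by U4C counted from 1 at the 5′ end. The closest relatives lie in different clusters. From miR-200b to miR-200c the shared 22 positions differ by U11G and A22G, and from miR-200a to miR-141 by C17A and U22G. Within the first cluster, miR-200b differs from miR-200a at 4 positions (U4C, C9U, U17C and A22U) and from miR-429 at 4 (C9U, A19C, U20C and A22U). How reads that match several names were counted is not given in the sources used here. A read that ends before position 17 would match miR-200a and miR-141 alike, while miR-200b and miR-200c would still differ at position 11. Longer reads that lack only position 22 differ at 1 position in both pairs.

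In GRCm38.p6 the first cluster lies on the minus strand of chromosome 4, with the hairpins of miR-200b at chr4:156055681-156055750, miR-200a at chr4:156054896-156054985 and miR-429 at chr4:156053905-156053987. The 3 hairpins span 1846 bases. In GENCODE M21 all of them fall inside introns of Ttll10, a gene of the tubulin tyrosine ligase-like family on the same strand, and within the noncoding transcript gene Gm13648, of which miR-429 overlaps an exon. The second cluster lies on the minus strand of chromosome 6, with miR-200c at chr6:124718322-124718390 and miR-141 at chr6:124717914-124717985, a span of 477 bases. Both sit in an intron of the noncoding gene Gm15884, between the coding genes Phb2 and Ptpn6. miR-141 also overlaps an exon of Gm29008, another annotated gene on the same strand. The build behind the deposited counts is not given in the sources used here, so these positions describe the reference hairpins only.

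Libraries held 622132 reads (pancreas) to 9341000 reads (small intestine). Marker miRNAs fixed for a tissue were examined in 12 libraries, and in 11 of them each marker ranked first or second of the 14 libraries. In ovary the 2 markers summed to only 8.82 RPM, and for lung a single endothelial marker was used. The 3 intestinal markers miR-192, miR-194 and miR-215 went against the label in the colon library, where each ranked last, and summed to 25.2 RPM, against 212864 RPM in small intestine and 78772 RPM in the library labelled uterus. For this reason those libraries are called the library labelled colon and the library labelled uterus. miR-143, a miRNA of smooth muscle and mesenchyme, held 98.7% of the reads labelled colon and 87.1% of the ovary reads, which lowers the RPM of every other name there. The last ranks of the intestinal markers in the library labelled colon are on library totals and carry this effect. Apart from miR-143 that library held 86545 reads, with 131 of miR-192, 7 of miR-194 and 30 of miR-215. Ovary held 292350 reads apart from miR-143, with 96 of miR-192, 6 of miR-194 and 73 of miR-215. Each of these shares is smaller than in the library labelled colon. With miR-143 left out, the 3 markers were thus not last in that library, and their exact ranks were not worked out. Levels below are RPM on library totals. The other scalings tried were totals from which miR-143, or the 5 names with the most reads, had been taken out, and median-of-ratios factors, which align the names that have reads in every library. Shares and ratios between members of the same library do not depend on scaling.

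Summed over its 5 members, the family reached 13738 RPM in small intestine, 9611 in the library labelled uterus, 8289.8 in kidney, 6133 in oesophagus, 5960.2 in stomach and 3414 in lung. Pancreas stood between, at 1164 RPM. The family was scarce elsewhere, with 165 RPM in spleen, 110.3 in liver, 93.9 in brain, 68.6 in heart, 39.7 in cerebellum, 22.1 in ovary and 19.2 in the library labelled colon. In small intestine this was 1.37% of all miRNA reads. The lowest values rest on few reads, 45 in cerebellum, 50 in ovary and 128 in the library labelled colon, against 128328 in small intestine.

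The place of the library labelled colon turned on its miR-143 reads. With totals without miR-143 the family stood at 1479 RPM there, the seventh of the 14 libraries and above pancreas at 1212 RPM, while it was last with library totals. Small intestine (29609 RPM) and the library labelled uterus (22267 RPM) stayed first and second under that scaling, and stomach (20020.4 RPM) passed kidney (11768 RPM).

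**Figure D1:**
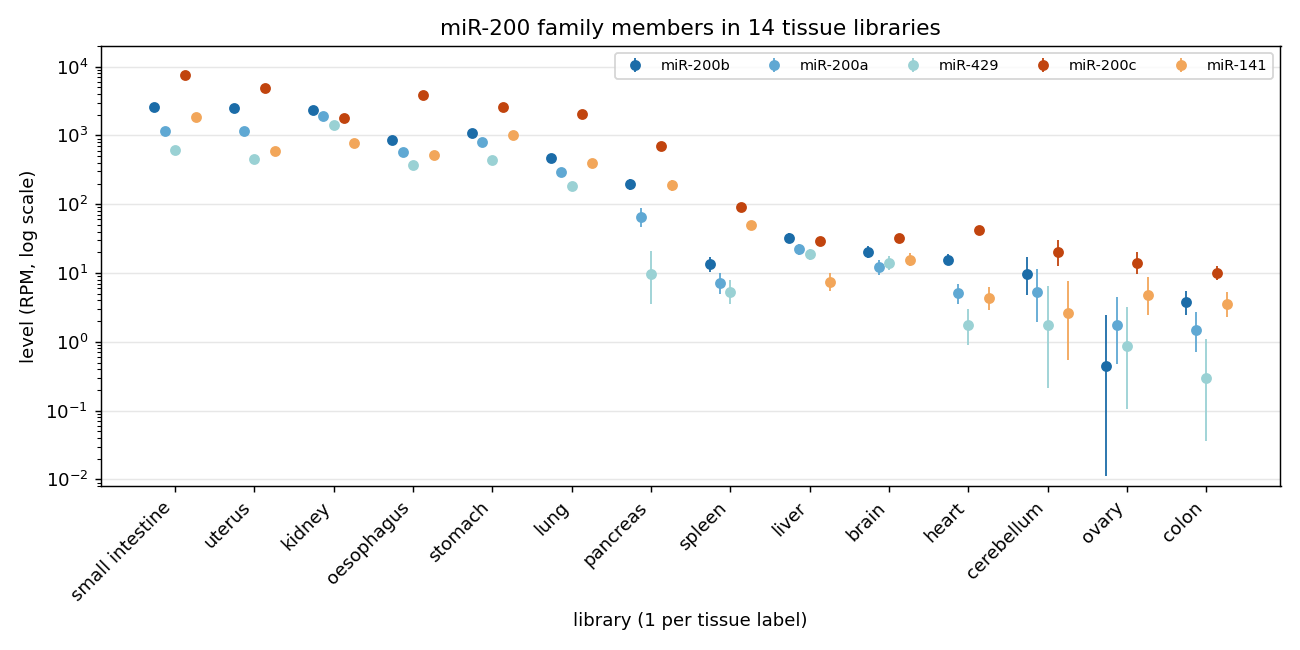
Level of each miR-200 family member (RPM, log scale) in 14 libraries ordered by the summed family level, with exact 95% Poisson intervals for counting error. miR-200c is the highest member in 12 libraries, and kidney and liver are the exceptions, with miR-200b on top at 2339.8 and 32.8 RPM.

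miR-200c was the most abundant member, with 185591 of the family's reads over the 14 libraries. It reached 7550.4 RPM in small intestine, 4896 in the library labelled uterus, 3807 in oesophagus, 2601 in stomach, 2063 in lung, 1804 in kidney and 706 in pancreas. It then fell away to 89.6 RPM in spleen, 41.8 in heart, 31.8 in brain, 29.2 in liver, 20.3 in cerebellum, 14.1 in ovary and 10.0 in the library labelled colon. The first 10 places in this order were apart by more than counting error, while brain and liver, liver and cerebellum, cerebellum and ovary, and ovary and the library labelled colon were not. Kidney came only sixth for this member.

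miR-141, which lies beside miR-200c and carries the other seed, had 43836 reads. It stood at 1850.3 RPM in small intestine, 1003 in stomach, 783 in kidney, 594 in the library labelled uterus, 528 in oesophagus, 398 in lung and 188 in pancreas. The lower libraries held 49.4 RPM (spleen), 15.6 (brain), 7.41 (liver), 4.85 (ovary), 4.33 (heart), 3.60 (labelled colon) and 2.64 (cerebellum, 3 reads). Its order differed from that of miR-200c: stomach stood above the library labelled uterus, although miR-200c was higher in the latter. From liver downwards no neighbours in the order differed beyond counting error.

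miR-200b, which shares the seed of miR-200c, had 84567 reads and led the first cluster in most libraries. Small intestine held 2549 RPM, the library labelled uterus 2519 and kidney 2339.8, followed by stomach at 1102, oesophagus at 850.2, lung at 477 and pancreas at 196. The 2 highest libraries did not differ beyond counting error (fold 1.01, interval 0.993 to 1.03). Below pancreas it held 32.8 RPM in liver, 20.3 in brain, 15.7 in heart, 13.6 in spleen, 9.69 in cerebellum and 3.75 in the library labelled colon, and 1 read (0.441 RPM) in ovary. Between brain and cerebellum, each library and the next in this order (brain and heart, heart and spleen, spleen and cerebellum) did not differ beyond counting error; libraries further apart in the order were not compared. With totals without miR-143 the library labelled uterus came first (5837 RPM, against 5493 in small intestine).

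miR-200a had 50656 reads and was highest in kidney, at 1938 RPM, ahead of small intestine at 1169, the library labelled uterus at 1141, stomach at 810.5, oesophagus at 576, lung at 289 and pancreas at 64.3. Small intestine and the library labelled uterus did not differ beyond counting error (fold 1.02, 0.997 to 1.05). The remaining libraries held 22.1 RPM (liver), 12 (brain), 7.21 (spleen), 5.29 (cerebellum), 5.05 (heart), 1.76 (ovary, 4 reads) and 1.5 (labelled colon, 10 reads). With median-of-ratios factors the first place passed to the library labelled uterus (1047 against 576 in kidney), and likewise with totals without the 5 most abundant names.

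miR-429 was the least abundant member, with 29997 reads, and was also highest in kidney, at 1425 RPM, against 620 in small intestine, 460.0 in the library labelled uterus, 444 in stomach, 372 in oesophagus and 187 in lung. It was the member that stood apart in pancreas, where 6 reads gave 9.64 RPM (3.54 to 21), less than liver at 18.9 and brain at 14.1, although those intervals overlap that of pancreas. Spleen held 5.36 RPM, cerebellum 1.76, heart 1.73, ovary 0.882 and the library labelled colon 0.30, the last from 2 reads. Kidney kept the first place with totals without miR-143 (2023 RPM, with stomach next at 1491), but with median-of-ratios factors small intestine came first (516 against 423).

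A fixed rule of size was then applied in every library, since no test was possible. A name was called high in a library at 100 RPM or more there and at least 4 times the median of the other 13, and low where that median was 100 RPM or more and at least 4 times its level, with 1 RPM added to all values. The 418 names that reached 10 RPM somewhere are the background. Of these, the rule called 5.50% high in small intestine, 3.83% in the library labelled uterus, 5.50% in stomach, 9.57% in kidney, 11.5% in oesophagus and 10.0% in lung, and in each of these 6 libraries all 5 members were among them. In pancreas 2.87% of names were called high, and miR-200b and miR-200c were the 2 members among them, at 5.83 and 7.80 times the median of the other libraries. No member was called high in the other 7 libraries. All 5 were also called high in small intestine, stomach and the library labelled uterus under the 3 other scalings, and oesophagus kept 4 under each. Lung lost all 5 calls with median-of-ratios factors and kept 1 with totals without the 5 most abundant names. In kidney 3 members were called high under each of those 2 scalings, and 4 with totals without miR-143. Pancreas had 4 with median-of-ratios factors. With totals without miR-143 pancreas had 0, and the same without the 5 most abundant names.

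The largest fold of a member over the median of the other 13 libraries was 94.4 for miR-429 in kidney (1425 against 14.1 RPM). In small intestine miR-200c stood at 83.3 and miR-200b at 75.5 times that median, miR-200a at 50.7, miR-429 at 41.1 and miR-141 at 36.7. In kidney the 3 members of the first cluster led, since miR-200a stood at 84.1, miR-200b at 69.3, miR-200c at 19.9 and miR-141 at 15.5. Each of these medians was the level of a single other library. It was liver for miR-200b (32.8 RPM) and miR-200a (22.1), and brain for miR-429. For miR-200c (89.6 RPM) and miR-141 (49.4) it was spleen. The second cluster held 84.2% of family reads in spleen and 33.1% in liver, so folds of different members also carry that difference. The median of log2 folds over the 5 members was 6.11 in kidney, 5.66 in small intestine, 5.63 in the library labelled uterus, 4.88 in stomach, 4.65 in oesophagus and 3.65 in lung, beside 0.93, 0.06, 0.01, 0.30, 1.03 and 0.72 over all 418 names. The log2 fold of the family sum was 5.64 in kidney and 6.37 in small intestine. Under the other scalings it ran from 2.70 to 3.28 in kidney and from 4.53 to 5.01 in small intestine. The place of kidney by the member median is thus given for library totals only.

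In the other direction miR-200b, miR-200c and miR-141 were called low in brain (with 3.35% of all names), cerebellum (5.26%), heart (2.87%), liver (3.11%), ovary (14.4%) and the library labelled colon (17.5%), and miR-200b and miR-200c in spleen (1.20%). The 3 calls in the library labelled colon were lost under each of the 3 other scalings, which left 0 members low there. In the other 6 libraries the count of low members did not fall under any of these scalings, and spleen went from 2 to 3 or 4. With library totals miR-200a and miR-429 could not be called low, since their median over the other libraries never reached 100 RPM. In ovary and in the library labelled colon the median log2 fold of all names was itself −1.64 and −2.05. miR-429 stood at 14.1 RPM in brain and 18.9 in liver, the middle of its order over 14 libraries. The median used for each was the level of the other, so its folds of 0.759 and 1.32 only compare brain with liver. For miR-200b the median was in both cases the pancreas level of 196 RPM, and the folds were 0.108 and 0.171.

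The members were spread over several organs rather than held by a single one. The specificity index tau, which is 0 for an even profile and 1 for a name found in a single library, was 0.400 for miR-200c, 0.439 for miR-200b, 0.462 for miR-141, 0.488 for miR-200a and 0.548 for miR-429. The median over all 418 names was 0.640. None of the 5 reached 0.85, which 21.3% of all names did.

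The clusters were then set against each other, as the share of family reads that came from miR-200c and miR-141. The share was 68.4% in small intestine (68.2 to 68.7), 70.7% in oesophagus (70.2 to 71.2), 72.1% in lung (71.5 to 72.7), 60.5% in stomach (60.0 to 60.9) and 57.1% in the library labelled uterus (56.8 to 57.5). In kidney it was 31.2% (30.9 to 31.5). Kidney was thus the library with abundant family reads in which the miR-200b, miR-200a and miR-429 cluster led, at 5703 RPM against 2587 RPM for miR-200c and miR-141. In small intestine the same sums were 4337 and 9401 RPM.

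Liver showed the same balance at a far lower level, with 33.1% (29.7 to 36.8) of 700 family reads from miR-200c and miR-141, and its interval overlapped that of kidney. Brain stood at 50.5% (46.0 to 55.0, 499 reads). At the other end were ovary with 86% (73.3 to 94.2, 50 reads), spleen with 84.2% (81.5 to 86.6, 802 reads) and pancreas with 76.8% (73.5 to 79.8, 724 reads). Heart held 67.2%, cerebellum 57.8% and the library labelled colon 71.1% (62.4 to 78.8, 128 reads). The last interval includes the shares of heart, small intestine, oesophagus, lung and pancreas. Thus 12 of the 14 libraries lay above 50%, although the intervals of brain and cerebellum include 50%. Markers of single tissues also gave reads elsewhere. Outside liver, miR-122 ran from 1.32 RPM in ovary to 404 in kidney, with 121 in cerebellum and 82.2 in brain. Outside brain and cerebellum, miR-9 ran from 0 in ovary to 312 RPM in oesophagus, with 58.9 in liver. The scarce family levels lie in the range of miR-122 and miR-9, but other markers differed. Outside brain and cerebellum, miR-124 reached at most 20.03 RPM (stomach) and miR-128 99.2 (oesophagus), with 9.61 and 6.30 in liver. Outside heart, miR-499 reached at most 3.21 RPM (pancreas), while miR-1 stood at 3160 in brain and 39.2 in liver. miR-202-3p stood at 0 outside ovary. Whether reads from other tissues enter the shares of the libraries with scarce family reads was not tested.

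**Figure D2:**
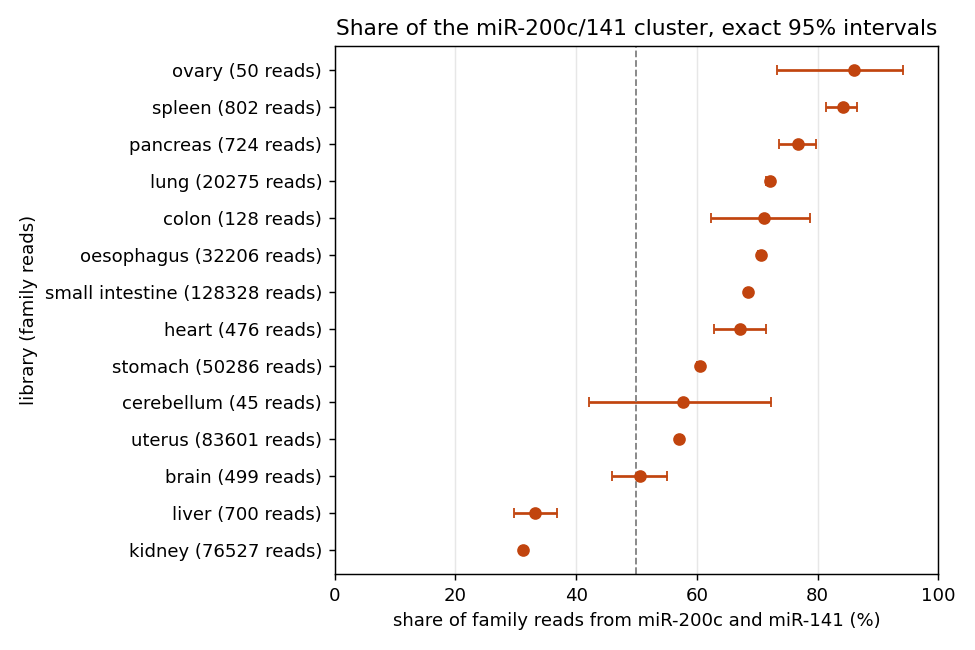
Share of the 5 members' reads that came from miR-200c and miR-141, in percent, for each library with exact 95% binomial intervals, and the number of family reads beside each name. Kidney (31.2%) and liver (33.1%) lie below the dashed line at 50%, and the other libraries run from 50.5% in brain to 86% in ovary.

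The comparison was repeated within each seed. Of the AAUACUG pair across clusters, miR-200c had 0.771 reads for each read of miR-200b in kidney (0.755 to 0.787) and 0.889 in liver (0.726 to 1.09), against 1.94 in the library labelled uterus, 2.36 in stomach, 2.96 in small intestine, 4.32 in lung, 4.48 in oesophagus and 6.59 (5.08 to 8.67) in spleen. Of the AACACUG pair, miR-141 had 0.404 reads for each read of miR-200a in kidney (0.393 to 0.415) and 0.336 in liver (0.236 to 0.470), against 1.24 in stomach, 1.38 in lung, 1.58 in small intestine and 6.86 (4.8 to 10.1) in spleen. The library labelled uterus (0.520) and oesophagus (0.916) lay below 1 for this pair, so the cluster balance there depended on the pair that was compared.

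Folds between small intestine and kidney differed between members. With library totals miR-200c was 4.19-fold (4.12 to 4.26) and miR-141 2.36-fold (2.30 to 2.43) higher in small intestine, and miR-200b was 1.09-fold higher (1.07 to 1.11). miR-200a stood at 0.603 (0.589 to 0.618) and miR-429 at 0.435 (0.422 to 0.449) of its kidney level in small intestine. The last pair depended on scaling, since median-of-ratios factors put miR-200a at 1.69 and miR-429 at 1.22 times the kidney level, and miR-200c at 11.7 times. The ratio of miR-200c to miR-429 needs no scaling, and it was 1.27 in kidney (1.24 to 1.3) and 12.2 in small intestine (11.9 to 12.5).

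**Figure D3:**
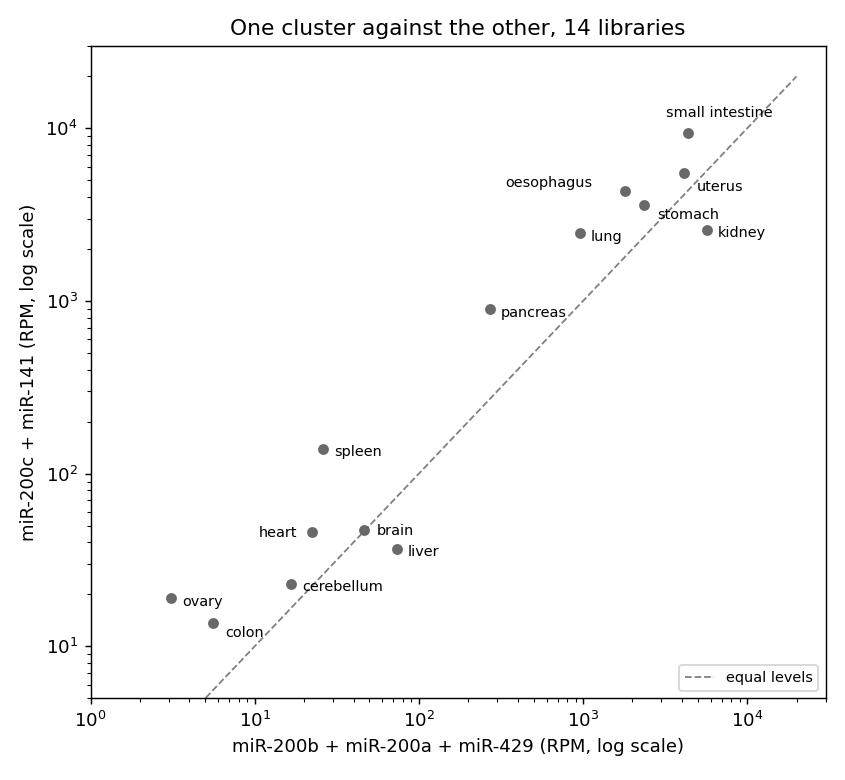
Summed level of miR-200c and miR-141 against the summed level of miR-200b, miR-200a and miR-429 (RPM, both axes on log scales), 1 point per library; the dashed line marks equal levels. Kidney and liver lie below the line, brain lies on it, and the other libraries lie above it.

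Names from the same cluster did not keep a fixed ratio between organs. For each read of miR-200b there were 0.828 reads of miR-200a in kidney (0.812 to 0.845), 0.736 in stomach, 0.678 in oesophagus, 0.606 in lung, 0.459 in small intestine (0.448 to 0.469) and 0.453 in the library labelled uterus (0.442 to 0.464). miR-429 had 0.609 reads for each read of miR-200b in kidney (0.596 to 0.622), 0.437 in oesophagus, 0.403 in stomach, 0.391 in lung, 0.243 in small intestine (0.236 to 0.250) and 0.183 in the library labelled uterus (0.176 to 0.189). Kidney was the highest of these 6 libraries and the library labelled uterus the lowest in both ratios, and small intestine lay next to the latter.

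In the second cluster, miR-141 had 0.434 reads for each read of miR-200c in kidney (0.422 to 0.446), 0.386 in stomach (0.376 to 0.396), 0.245 in small intestine (0.241 to 0.249), 0.193 in lung, 0.139 in oesophagus and 0.121 in the library labelled uterus (0.118 to 0.125). Among the shallower libraries spleen had the highest value, 0.552 (0.469 to 0.647), and heart the lowest, 0.103 (0.0685 to 0.151). Small intestine and the library labelled uterus were nearly equal in miR-200b and miR-200a, but miR-141 was 3.12-fold higher (3.02 to 3.22) and miR-200c 1.54-fold higher (1.52 to 1.56) in small intestine.

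**Figure D4:**
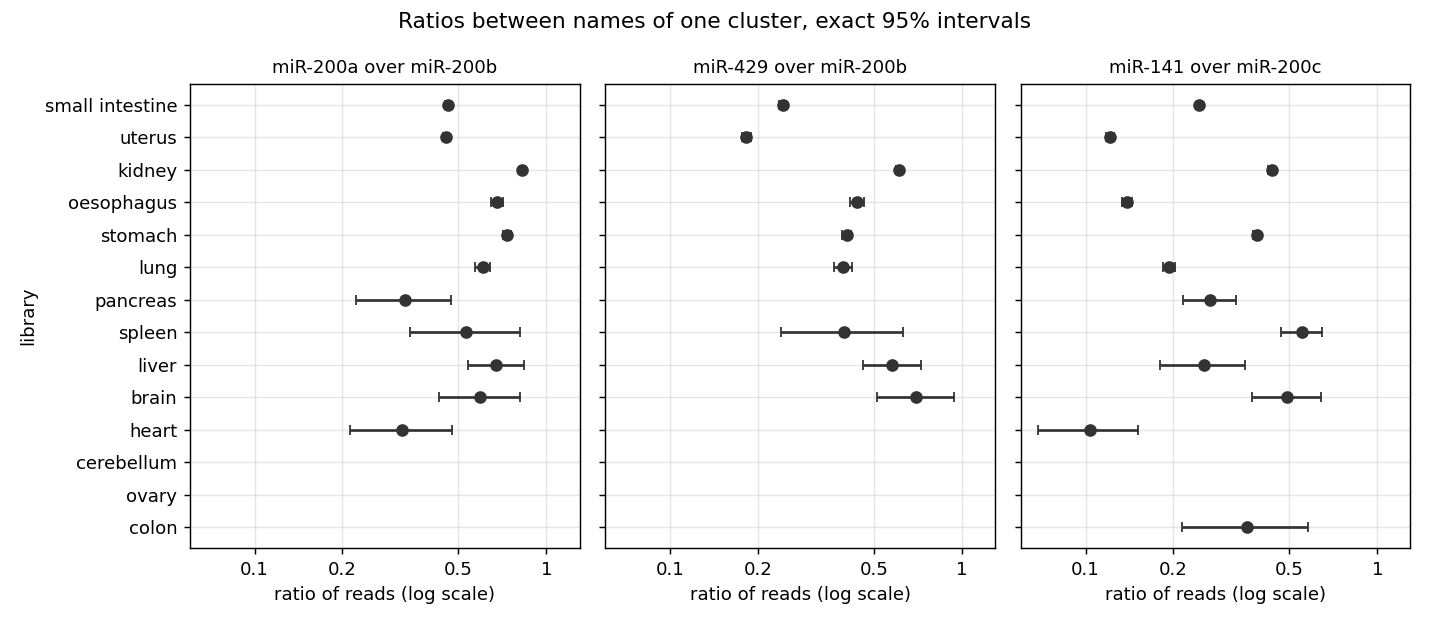
Reads of miR-200a and of miR-429 for each read of miR-200b, and of miR-141 for each read of miR-200c (log scale), by library, with exact 95% intervals; libraries with under 20 reads of either name carry no point. Kidney lies to the right of the other 5 deeply covered libraries in all 3 panels.

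Across libraries, the log2 ratio varied less for names of the same cluster than for names of different clusters. In the 9 libraries with at least 20 reads of every member, the SD of the log2 ratio ran from 0.30 to 0.79 over the 4 pairs within a cluster and from 1.06 to 1.42 over the 6 pairs between clusters. The ranges stayed apart when each of the 9 was left out in turn. Kidney carried much of this among the 6 libraries with at least 1000 reads of every member: the ranges were 0.30 to 0.76 and 0.79 to 1.26 with kidney, and 0.28 to 0.67 and 0.42 to 0.79, which overlap, without it. They also overlapped without lung (0.33 to 0.84 and 0.81 to 1.35), small intestine (0.33 to 0.84 and 0.78 to 1.33) or the library labelled uterus (0.19 to 0.69 and 0.57 to 1.36). For 29791 pairs of names outside the family, each with 20 reads or more in at least 6 libraries, the median SD was 1.96.

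Levels themselves rose and fell together. Over 14 libraries, Pearson's r of log2(RPM + 1) was 0.955 to 0.987 for the 4 pairs within a cluster and 0.915 (miR-429 with miR-200c) to 0.962 (miR-200b with miR-200c) for the 6 pairs between clusters. The summed clusters had r = 0.960. The median over all 87153 pairs of the 418 names was 0.430, and 3.29% of those pairs reached 0.9. These values describe 14 single libraries that share the scaling by totals, and they span wide gaps between organs.

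By seed, the AAUACUG group held most family reads in all 14 libraries, from 65.7% in spleen (62.3 to 69.0) to 86.3% in heart (82.9 to 89.3). In the deeply covered libraries the share was 67.2% in kidney, 69.6% in stomach, 78.0% in small intestine, 79.9% in lung, 81.9% in the library labelled uterus and 82.0% in oesophagus. Within the first cluster it moved little, from 65.6% in stomach to 77.6% in heart over 12 libraries. Within the second cluster it ran from 64.4% in spleen and 69.7% in kidney to 89.2% in the library labelled uterus and 90.6% in heart. Kidney and stomach thus held the largest AACACUG shares among deeply covered libraries, although their cluster shares were 31.2% and 60.5%.

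The opposite arm of each hairpin, which the older naming marks with a star, gives a second reading of the same hairpins that did not enter the choice of members. For these 5 hairpins it is the 5′ arm, and the sequences of the 3 star strands with more than 100 reads are shown for that reason, with bases 2 to 8 in capitals.
miR-200b*: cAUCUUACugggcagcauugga
miR-200a*: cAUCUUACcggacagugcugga
miR-141*: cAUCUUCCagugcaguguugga

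Star reads numbered 4867 for miR-200b*, 781 for miR-200a*, 447 for miR-141*, 38 for miR-200c* and 5 for miR-429*. miR-200b* held a median of 5.95% of its hairpin's reads over the 6 libraries with at least 1000 hairpin reads, from 3.86% in small intestine (3.62 to 4.10) to 9.25% in lung (8.26 to 10.3). miR-200a* ran from 0.787% in kidney (0.664 to 0.927) to 3.05% in lung (2.30 to 3.96), and miR-141* from 0.413% in kidney (0.279 to 0.589) to 1.97% in the library labelled uterus (1.62 to 2.39). The star strand was almost absent for miR-200c, the most abundant member, at 0.0198% in small intestine (14 of 70542 reads) and at most 0.050% in oesophagus. For miR-429*, 0 of 5788 hairpin reads in small intestine allow a share of up to 0.0637% by the exact interval, or 0.0518% if a 0 is taken as up to 3 reads.

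The star strands of miR-141 and miR-200a differ at 5 positions (A7C, C9A, G11U, A12G and C18U), more than their main strands do. This comparison was chosen after its values were seen. miR-141* made up 17.4% (12.1 to 24.0) of the reads of both stars in kidney, 35.3% (29.8 to 41.0) in the library labelled uterus, 38.9% (32.4 to 45.7) in stomach, 40.6% (35.4 to 46.0) in small intestine, 43.2% (33.0 to 53.7) in lung and 49.4% (38.5 to 60.4) in oesophagus. The interval of kidney lay below those of the other 5 libraries, which overlapped one another. For the main strands the corresponding share was also lowest in kidney, at 28.8%, followed by 34.2% in the library labelled uterus and 47.8% to 61.3% in the other 4.

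**Figure D5:**
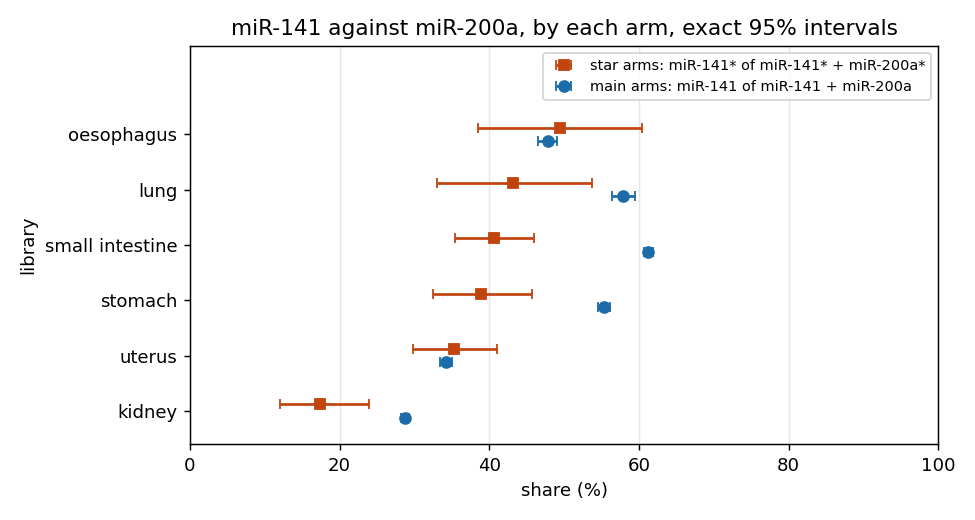
Share of miR-141 reads among miR-141 and miR-200a reads (circles) and the same share for their star strands (squares), in percent with exact 95% binomial intervals, for the 6 libraries with at least 20 reads of both stars together. Kidney is the lowest by either arm, at 28.8% and 17.4%. In kidney, stomach, lung and small intestine the star share lies below the main share with intervals apart.

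The names with profiles most like each cluster were then sought over all libraries. Outside the family, miR-183, miR-182 and miR-96, which are cut from another miRNA cluster, known from sensory organs, were among the 5 names closest to each cluster sum, with r over 14 libraries of 0.897, 0.867 and 0.852 for the first cluster and 0.894, 0.842 and 0.827 for the second. miR-10a* (the star strand of a Hox-cluster hairpin) also stood in both lists, with 0.898 and 0.868. It reached at most 46.5 RPM (kidney), with 0 reads in brain, cerebellum, ovary and the library labelled colon. miR-96 reached at most 35.9 RPM (small intestine), with 0 reads in 3 libraries. The r of both names rests in part on counts at or near 0. The fifth name was miR-455 for the first cluster (0.798) and miR-152 for the second (0.770). With totals without miR-143, miR-183 was first in both lists (0.885 and 0.890) and miR-96 fell to the fifth and the ninth place.

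Of 10 other miRNAs listed for epithelia, 9 had r above 0.5 with the family sum, against 16.8% of 410 names outside the family, whose median r was 0.14. The 10 names are not all separate readings, since miR-183, miR-182 and miR-96 share a cluster. The values ran from 0.904 for miR-183 to 0.406 for miR-31, with 0.764 for miR-203 and 0.613 for miR-205, the latter a squamous miRNA also known to repress the ZEB factors. miR-205 was far more restricted than the family: 903 RPM in oesophagus and 210.4 in stomach, 27.8 in the library labelled uterus, 9.0 in kidney and 0.5 in small intestine, with 0 reads in 5 libraries. Names of other cell types moved with the family too, since 4 of 6 mesenchymal names (miR-145, miR-199a-3p, miR-214 and miR-199a-5p) had r of 0.749, 0.670, 0.659 and 0.566, while miR-143 had 0.210 and miR-133a 0.048. The summed mesenchymal list without miR-143 ran from 65.9 RPM in pancreas to 2504 RPM in oesophagus, with miR-214 at 0 in cerebellum and miR-133a at 0 in liver. The part of cell composition in the levels of the family was not tested.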

How the data were processed

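Small RNA libraries of 14 mouse tissues, 1 per tissue, were analysed. Per the labels' protocols, RNA was extracted with Trizol, pooled over mice and prepared by the standard Illumina procedure. The authors deposited unscaled counts, whole numbers of reads for each of 1046 mature miRNA names. The aligner, the miRNA release and the genome build are unknown, being not given in the sources used here. All 14 value columns matched a tissue label. Counts were divided by the library's miRNA total to give RPM. Ligation and amplification can favour some sequences, so ratios between names are ratios of reads, not of molecules; a comparison of 1 ratio between libraries is less affected. No molecular identifiers are described, so intervals cover counting error only. Depth ran from 622132 to 9341000 reads, and a count of 0 allows up to 3 reads, or 0.321 to 4.82 RPM.

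Shares have exact Clopper-Pearson intervals, levels exact Poisson intervals, and ratios and folds exact conditional binomial intervals (SciPy 1.17.1, pandas 2.3.3). Shares and ratios needed 20 reads. The rule of size and the intervals were checked on simulated data. The members, lists and rules were chosen with earlier results of these data known. Named were the members, their star strands, the epithelial and mesenchymal lists, the tissue markers and the 5 names most like each cluster. Alternatives were median-of-ratios factors, totals without miR-143 or without the 5 most abundant names, other thresholds and pseudocounts, and other sums; leaving out the pair of libraries whose labels are in doubt (colon and uterus) was added after seeing the data. Against totals, median-of-ratios factors shifted values on the log2 scale by −1.75 (kidney) to 4.21 (labelled colon), and totals without miR-143 by 0.06 to 6.27. Sequences and hairpin positions are from RefSeq (GRCm38.p6), in which all 5 members and their star strands were found, and gene overlaps from GENCODE M21.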

Additional observations from a re-analysis of the deposited data

How the results depend on the processing

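Counts of member calls summed over all libraries kept within 1.5 times under the alternatives run, but counts in single libraries moved further. With median-of-ratios factors, high calls went from 5 to 0 in lung, from 5 to 3 in kidney and from 2 to 4 in pancreas. Low calls in spleen went from 2 to 4 with those factors. With library totals 32 member and library pairs were called high; median-of-ratios factors gave 26 (24 of the same pairs), leaving miR-143 out of the totals gave 28, and leaving out the 5 most abundant names gave 23, all of them pairs from the 32. Low calls were 20, against 23, 23 and 24, although the 3 in the library labelled colon fell to 0 each time. Without the libraries labelled colon and uterus, there were 27 high and 17 low calls over 12 libraries. The family sum in the library labelled colon reversed with totals without miR-143, to 0.29 (log2 against the median of the other 13), and in pancreas to −0.29. Brain moved to 49.7% from miR-200c and miR-141 when star strands were added. With miR-141 and miR-200a alone, 7 libraries lay above 50% in place of 12, since heart (46.2%), oesophagus (47.8%) and the library labelled uterus (34.2%) went below and ovary and cerebellum had too few reads; kidney and liver stayed below 50% under every sum tried. The correlation of the clusters ran from 0.916 (Spearman) to 0.964 (pseudocount of 10 RPM). No paired analysis was possible because each tissue has 1 library. Depth limits the cluster share in cerebellum and ovary, with 45 and 50 family reads, and the star strands of miR-200c and miR-429.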
